A study of Mus musculus with 12 samples.

Results

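Nes, Sox9 and Sox4 are genes of neural progenitors, and their loci were among the regions tiled on a custom array that measured H3K27me3 in mouse ESCs and in NPCs. Nes encodes nestin, the intermediate filament protein that marks neural stem and progenitor cells. Sox9 and Sox4 encode SOX transcription factors, the first known for the maintenance of neural stem cells and for gliogenesis, the second for neuronal differentiation in progenitors. The 3 genes were chosen by their lower ratio in NPCs than in ESCs, a result of these same arrays, so the difference between NPCs and ESCs is given for them as a description without a test. Their tiled regions held 611 of the 48316 probes outside control spots, 211 at Nes, 229 at Sox9 and 171 at Sox4, in 3 of the 39 tiled regions of the array.

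H3K27me3 is the trimethylation of lysine 27 on histone H3 that polycomb repressive complex PRC2 places. In ESCs it covers the CpG-rich promoters of many developmental genes, often together with the active mark H3K4me3, and during differentiation it is lost from genes of the lineage that is taken up and gained at genes of other lineages. An array of this kind reports the mark and not the transcript, and expression of the 3 genes is not analysed here.

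All cells were 46c mESCs, a male line derived from E14tg2A with GFP inserted at Sox1, or NPCs made from it in N2B27 medium. The 5 ESC populations were transfected with a plasmid for eGFP (the control), or for a TALE DNA-binding protein fused to the activator Vp64 and targeted to the Shh promoter (tShh-Vp64), to the Shh brain enhancers SBE6 (tSBE6-Vp64) or SBE2 (tSBE2-Vp64), or to both enhancers (tSBE(6+2)-Vp64). None of these proteins was aimed at Nes, Sox9 or Sox4. The TALE plasmids also encode eGFP, and the study describes sorting transfected cells on it, a transient expression in a cell pool. NPCs carried no TALE, and the labels give neither their day of differentiation nor a sort, so the share of cells in the culture that were NPCs is not known. Native ChIP DNA and input DNA were hybridised together on 2 arrays (R1 and R2) for each of the 6 conditions, 12 arrays in all. The labels of 3 conditions place R1 and R2 in the same biological replicate and those of the others do not say, so the 2 arrays were averaged to 1 sample per condition.

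Values are log2 ratios of the red (Cy5) over the green (Cy3) scan, centred on the median of each array, so that 0 is the typical probe of an array rich in developmental genes. Per the labels the ChIP DNA carried Cy3, and the heading of the authors' deposited ratios also names Cy3 over Cy5, which would turn every sign, whereas these deposited values correlated with log2 Cy5/Cy3 at 0.892 to 0.981 over the probes of the 3 loci. The direction of the deposited values was used as the likely one for ChIP over input, since Gapdh and Actb, active genes that lack polycomb, had promoter values of -0.50 and -0.48 over the ESC populations, while the polycomb targets Six3 and Hoxd10 had 1.61 and 2.17. R1 and R2 correlated at 0.791 to 0.882 across probes, and all pairs of arrays at 0.598 to 0.882. In the Cy5 scan the software called 88.2% and 92.5% of the probes in the 3 loci bright against background on the NPC arrays. On the ESC arrays it was 96.6% to 99.0%. In the Cy3 scan it was 71.8% and 85.6% with tSBE(6+2)-Vp64, 87.9% and 90.5% in NPCs, and 87.9% to 98.5% on the other arrays. NPC and tSBE(6+2)-Vp64 arrays shared slide 2 and the other 8 arrays slide 1, so the NPC values of the promoters and of the main parts of each locus are also given against tSBE(6+2)-Vp64 ESCs of the same slide.

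The mark itself was read at marker genes of the cell types. At the promoters of the 5 measured pluripotency genes of 7 (Pou5f1, Fgf4, Nanog, Sox2 and Klf4) the mean over ESC populations was -0.62 to 0.03 and NPCs had 0.64 to 2.32. Sox2, which is also among the neural development genes listed below, had the smallest rise, from -0.17 to 0.64. At Pou5f1, which encodes the pluripotency factor OCT4, the ratio was -0.56 ± 0.09 (SD, n = 5 ESC populations) in ESCs and 2.24 in NPCs. Of 6 neural progenitor genes, Sox1 and Fabp7 were not measured. Nes, Sox9 and Sox4 had lower values in NPCs, for which they were chosen. Pax6, a transcription factor of dorsal neural progenitors, had 1.88 in ESCs and 3.13 in NPCs. The neural progenitor genes on the array did not share a direction, so they give no check of the cell type.

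In the mm9 build, Nes (ENSMUSG00000004891.10) lies on the plus strand at chr3:87775015-87784373 in 4 exons, of which exon 4 holds 5031 bp. The tiles ran from 3.3 kb upstream to 13.5 kb downstream of its transcription start site (TSS). Sox9 (ENSMUSG00000000567.4) lies on the plus strand at chr11:112643538-112649074 in 3 exons and was tiled from 10.9 kb upstream to 8.6 kb downstream of the TSS. Sox4 (ENSMUSG00000076431.3), a gene of 1 exon on the minus strand at chr13:29040788-29045582, was tiled from 7.2 kb upstream to 7.3 kb downstream. Probes of 60 bases followed each other at a median step of 60 bp.

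The promoter sequences show what the probes nearest the TSS read. They are the bases directly upstream of the annotated TSS, from RefSeq (GRCm38.p6), each with 1 exact match in mm9, at chr3:87774765-87775014 on the plus strand for Nes and chr13:29045583-29045818 on the minus strand for Sox4. Capitals mark CG dinucleotides, the only motif searched, which reads the same on both strands.
Nes promoter: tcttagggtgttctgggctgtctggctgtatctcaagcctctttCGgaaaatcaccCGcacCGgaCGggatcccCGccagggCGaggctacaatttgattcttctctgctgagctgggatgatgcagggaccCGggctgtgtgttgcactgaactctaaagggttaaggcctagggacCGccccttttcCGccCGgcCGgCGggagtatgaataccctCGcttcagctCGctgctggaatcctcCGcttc
Sox4 promoter: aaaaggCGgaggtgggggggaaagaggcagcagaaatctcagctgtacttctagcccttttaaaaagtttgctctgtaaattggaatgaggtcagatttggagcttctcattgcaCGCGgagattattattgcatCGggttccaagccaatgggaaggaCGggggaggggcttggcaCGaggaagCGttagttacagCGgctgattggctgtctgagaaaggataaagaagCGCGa
The 250 bases of the Nes promoter held 15 CG dinucleotides, and 27.3% of the 32851 RefSeq promoters held at least as many in the same stretch (median 6). The 236 bases at Sox4 held 10, and 35.7% of promoters had as many (median 5). The 5 probes over the Nes stretch averaged 0.78 in ESCs (0.57 to 1.37 over the 5 populations) and -0.38 in NPCs. The 4 probes over the Sox4 stretch averaged 0.41 in ESCs, with a wide range of -0.27 to 1.04, and -1.21 in NPCs.

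A second pair of stretches is shown because they are the centres of the 1 kb steps with the highest ESC ratio at Nes and at Sox9. The Nes stretch, chr3:87780365-87780664, is coding sequence in exon 4, and the Sox9 stretch, chr11:112641888-112642187, lies upstream of the gene, both on the plus strand of mm9.
Nes exon 4: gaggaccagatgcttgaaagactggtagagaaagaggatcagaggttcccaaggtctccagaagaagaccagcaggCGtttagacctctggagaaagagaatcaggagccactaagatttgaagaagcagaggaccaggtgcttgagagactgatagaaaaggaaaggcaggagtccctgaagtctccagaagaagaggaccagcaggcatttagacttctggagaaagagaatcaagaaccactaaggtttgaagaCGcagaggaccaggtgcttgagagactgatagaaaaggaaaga
Sox9 upstream: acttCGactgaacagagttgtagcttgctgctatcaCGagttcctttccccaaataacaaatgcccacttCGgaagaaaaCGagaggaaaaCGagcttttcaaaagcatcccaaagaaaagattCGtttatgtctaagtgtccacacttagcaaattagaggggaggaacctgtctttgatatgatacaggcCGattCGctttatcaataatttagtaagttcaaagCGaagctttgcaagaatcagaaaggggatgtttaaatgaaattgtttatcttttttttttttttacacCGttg
The Nes stretch held 2 CG dinucleotides and the Sox9 stretch 10. Of the 169 windows of 300 bases in the 3 loci (median 4), 88.8% had at least 2 and 23.7% at least 10. The Nes exon 4 stretch is also repetitive. Of the words of 20 bases in its 1 kb step, 22.1% occurred more than once in the Nes region, that step included. In the other steps of the locus 0.0% to 1.7% did.

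In ESCs, the Nes promoter carried an H3K27me3 ratio above the array median in all 5 populations, and in NPCs it did not. Over the 46 probes within 2 kb of the TSS the mean was 0.97 (R1) and 0.80 (R2) in eGFP ESCs, 0.73 and 0.56 with tShh-Vp64, 0.66 and 0.70 with tSBE6-Vp64, 0.66 and 0.75 with tSBE2-Vp64, and 0.90 and 0.94 with tSBE(6+2)-Vp64. In NPCs it was -0.09 on R1 and -0.08 on R2. The 10 ESC arrays were thus all above the 2 NPC arrays, and the gap between the groups was larger than the whole range of the ESC arrays. The ESC mean was 0.77 ± 0.13 (SD, n = 5 populations) and the NPC value -0.08, a difference of -0.85 on the log2 scale. Against tSBE(6+2)-Vp64 ESCs on the same slide the difference was -1.0. Within ESCs the populations ranked tSBE(6+2)-Vp64, eGFP, tSBE2-Vp64, tSBE6-Vp64 and tShh-Vp64, and the arrays of neighbours in this order overlapped except those of eGFP and tSBE2-Vp64.

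The Sox9 promoter had the highest ESC ratio of the 3 promoters and stayed above the array median in NPCs. Over 51 probes the mean was 1.46 and 1.23 in eGFP ESCs, 1.07 and 1.00 with tShh-Vp64, 1.06 and 1.02 with tSBE6-Vp64, 1.19 and 1.25 with tSBE2-Vp64, 1.46 and 1.37 with tSBE(6+2)-Vp64, and 0.69 and 0.73 in NPCs. The NPC arrays lay below all ESC arrays but above the array median. The ESC mean was 1.21 ± 0.17 (SD, n = 5 populations), so the NPC value of 0.71 differed by -0.50, and by -0.70 from tSBE(6+2)-Vp64 ESCs on the same slide. The ESC populations ranked as at Nes, and the arrays of neighbours overlapped except those of tSBE2-Vp64 and tSBE6-Vp64.

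Sox4 had the lowest promoter ratio in ESCs. Its 53 probes averaged 0.55 and 0.33 in eGFP ESCs, 0.24 and 0.22 with tShh-Vp64, 0.35 and 0.45 with tSBE6-Vp64, 0.30 and 0.39 with tSBE2-Vp64, 0.68 and 0.70 with tSBE(6+2)-Vp64, and -0.21 and -0.04 in NPCs. Again no ESC array reached down to an NPC array, although the gap to the tShh-Vp64 arrays was small. The ESC mean was 0.42 ± 0.17 (SD, n = 5 populations), the NPC value -0.13 and the difference -0.55, which became -0.82 against tSBE(6+2)-Vp64 ESCs on the same slide. The order was tSBE(6+2)-Vp64, eGFP, tSBE6-Vp64, tSBE2-Vp64 and tShh-Vp64, with overlap between the arrays of the middle neighbours and none at either end. The size at Sox4 depended on how the window was read: the median over probes gave -0.34 and probes within 1 kb of the TSS gave -0.75, whereas the latter gave -0.29 at Sox9.

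**Figure D1:**
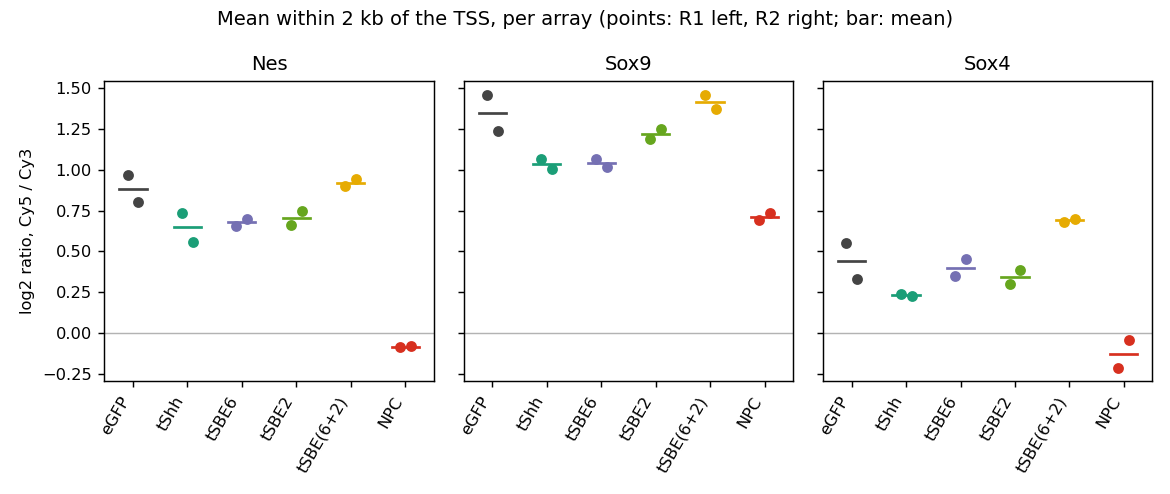
Mean log2 ratio (Cy5 over Cy3, y axis) within 2 kb of the TSS of Nes, Sox9 and Sox4 on each of the 12 arrays, with a bar at the mean of the 2 arrays of a condition (x axis). The 2 NPC points are below the 10 ESC points in each panel, near 0 at Nes and Sox4 and at 0.69 and 0.73 at Sox9.

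The lower ratio at Nes came with a lower Cy5 signal. Centred on each array's median, the log2 Cy5 signal over the promoter window was 1.51 to 1.70 in the 5 ESC populations and 0.71 and 0.79 on the NPC arrays, while the Cy3 signal was 0.86 to 1.08 in ESCs and 1.07 in NPCs (mean of 2 arrays). At Sox9 the Cy5 signal was 1.65 to 1.95 in ESCs and 1.09 and 1.13 in NPCs. The Cy3 signal at Sox9 was slightly lower in NPCs too, 0.64 and 0.63 against 0.72 to 0.81, which makes the difference of ratios smaller than that of the Cy5 signal. At Sox4 the Cy5 signal was 0.60 to 0.95 in ESCs and 0.12 and 0.14 in NPCs, and the Cy3 signal of NPCs (0.57 and 0.41) lay within the range of the ESC populations (0.41 to 0.58). In the Cy3 scan of the R2 array of NPCs the processed signal was within 1% of the background-subtracted one for 96.4% of probes, against 2.4% to 20.1% on the other 23 scans, so this scan was processed differently. Without the R2 arrays the promoter differences were -0.87 at Nes, -0.56 at Sox9 and -0.64 at Sox4.

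Along Nes, the mark in ESCs was not highest at the promoter but in the last exon. In the step 5 to 6 kb downstream of the TSS (12 probes) the ratio was 2.92 and 2.36 in eGFP ESCs, 2.03 and 2.27 with tShh-Vp64, 1.90 and 1.51 with tSBE6-Vp64, 1.74 and 1.86 with tSBE2-Vp64, and 2.07 and 2.18 with tSBE(6+2)-Vp64. NPCs had -0.07 and 0.28 there. The difference of -1.98 was the largest of the 51 steps with at least 5 probes in the 3 loci, and the next step, 6 to 7 kb, which holds almost no repeated sequence (0.1% of its words), differed by -1.94. Over the 73 probes of exon 4 the ESC mean was 1.18 ± 0.28 (SD, n = 5 populations) and the NPC value -0.10, a difference of -1.28, or -1.51 from tSBE(6+2)-Vp64 ESCs on the same slide.

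The smallest difference at Nes was at the TSS itself. In the first kb of the gene (15 probes) the ESC mean was 0.58 ± 0.19 (SD, n = 5 populations) and NPCs had 0.31 on both arrays, a difference of -0.27, whereas the kb just upstream had 0.88 in ESCs and -0.51 in NPCs. That first kb was also the stretch richest in GC, at 67.3% of bases in its probes. Intron 2, which is known to hold the enhancer that drives Nes in neural progenitors, had 0.55 ± 0.17 in ESCs and -0.33 in NPCs over 23 probes (SD, n = 5 populations), and NPCs differed from tSBE(6+2)-Vp64 ESCs there by -1.18. In all, NPCs were lower in 17 of 17 steps, and in 16 of them both NPC arrays lay below all ESC arrays. Such steps were counted only in the loci chosen on this contrast. Their share over the rest of the array is not known, so these counts, here and below, only describe the loci. No step of Nes had a ratio of 1 or more on both NPC arrays, against 2 to 5 steps in the ESC populations, and the NPC profile was flat, with a range over steps of 0.81 against 1.93 for the ESC mean.

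At Sox9 the NPC values were below those of ESCs along most of the locus, by less upstream of the gene than over it and downstream of it. The highest step of the 3 loci in ESCs was 1 to 2 kb upstream of the Sox9 TSS, at 2.81 ± 0.32 (SD, n = 5 populations), and NPCs had 2.07 and 2.18 there, still the highest NPC step. Of the 11 steps upstream of the TSS, 10 were lower in NPCs, with differences of -0.69 to 0.03, and in 6 of them both NPC arrays lay below all ESC arrays. The differences were smallest at 3 to 5 kb upstream, where the steps differed by -0.13 and -0.09, against an SD of 0.12 and 0.17 over the ESC populations, and from 8 to 9 kb upstream by 0.03. Over the 111 probes more than 2 kb upstream the ESC mean was 1.24 ± 0.09 (SD, n = 5 populations), with 1.08 to 1.43 on the 10 ESC arrays, and NPCs had 1.02 and 0.88, a difference of -0.29, so the NPC arrays were below all ESC arrays there too. Against tSBE(6+2)-Vp64 ESCs on the same slide it was -0.41. Over the 32 probes of the gene beyond 2 kb from the TSS it was 1.63 ± 0.23 (SD, n = 5 populations) in ESCs and 0.43 in NPCs, a difference of -1.20, or -1.47 on the same slide. The 35 probes downstream of the gene differed by -0.76, or -0.94 on the same slide.

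The step at the 3′ end of Sox9, 5 to 6 kb from the TSS, had 1.79 to 2.32 on the 10 ESC arrays and 0.50 and 0.49 on the NPC arrays. At the TSS itself, 0 to 1 kb, Sox9 was low in both cell types, 0.21 ± 0.22 in ESCs (SD, n = 5 populations) and 0.13 in NPCs. A ratio of 1 or more on both arrays was found in 12 or 13 of the 20 steps in the ESC populations and in 5 in NPCs, and all 5 lay upstream of the gene. The difference between the upstream and the gene probes was not tested, as both come from the contrast that chose the gene.

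Sox4 had a weaker and more local pattern. Its highest step in ESCs, 6 to 7 kb upstream, had 1.45 ± 0.38 (SD, n = 5 populations) and NPCs 0.78. Directly upstream of the TSS (0 to 1 kb, 12 probes) the ratio was 0.81 and 0.77 in eGFP ESCs, 0.74 and 0.69 with tShh-Vp64, 1.13 and 1.26 with tSBE6-Vp64, 0.54 and 0.67 with tSBE2-Vp64, 1.47 and 1.41 with tSBE(6+2)-Vp64, and -0.57 and -0.41 in NPCs. The difference of -1.44 was the largest at Sox4. The first 2 kb of the gene, with 65.1% and 68.4% GC, had 0.20 and 0.01 in ESCs and 0.01 and 0.04 in NPCs. Farther into the single exon, at 3 to 4 kb, ESCs again had 1.08 ± 0.38 (SD, n = 5 populations) and NPCs -0.15. NPCs were lower in 12 of 14 steps, but both NPC arrays were below all ESC arrays in only 6 of them. Against tSBE(6+2)-Vp64 ESCs on the same slide, NPCs differed by -0.50 more than 2 kb upstream, by -1.20 in the gene beyond 2 kb from the TSS and by 0.02 downstream of the gene.

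**Figure D2:**
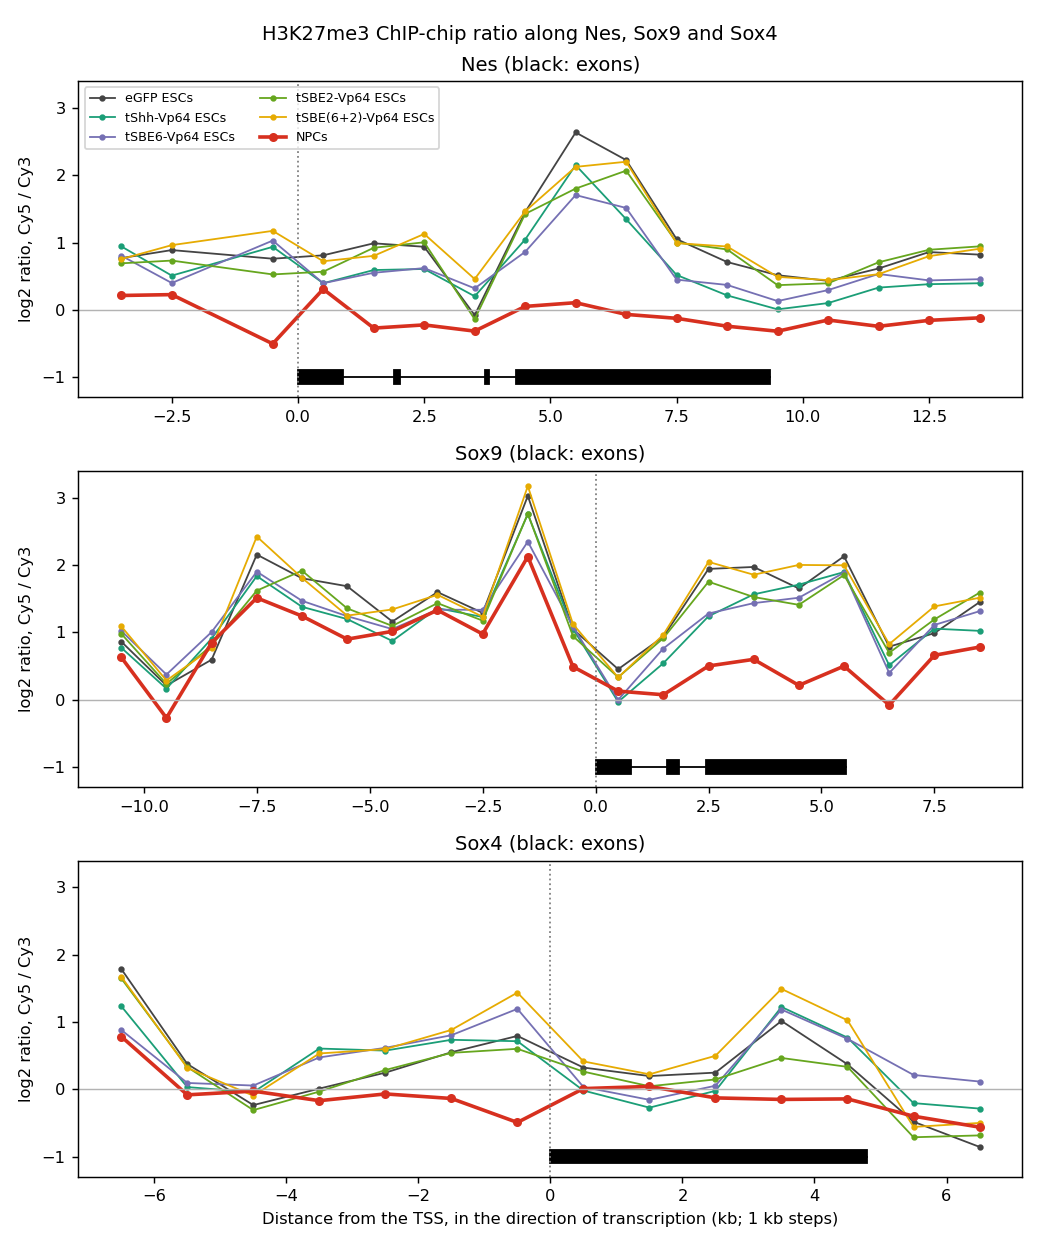
Log2 ratio (Cy5 over Cy3, y axis) in 1 kb steps with at least 5 probes along Nes, Sox9 and Sox4, against the distance from the TSS in kb (x axis), as the mean of 2 arrays for each ESC population (thin lines) and for NPCs (thick red line), with exons in black. At Nes the NPC line stays between -0.51 and 0.31 while ESCs reach 2.08 on average in the last exon, at Sox9 the NPC line is below most ESC lines upstream of the gene and farther below them over it, and at Sox4 they part on either side of the TSS.

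The first kb of each gene was read by GC-rich probes, 65.1% to 67.4% GC. The ESC mean in it was lower than in the kb upstream at each gene, and at Sox9 and Sox4 all ESC populations shared this. At Nes, where the ESC mean was 0.58 against 0.88 upstream, eGFP and tSBE2-Vp64 ESCs did not. The eGFP ESCs had 0.81 against 0.76 upstream, and tSBE2-Vp64 ESCs 0.57 against 0.53. The lowest ESC step of Nes lay 3 to 4 kb into the gene, at 53.5% GC. Across the 1 kb steps, GC content and the ESC ratio had a Pearson correlation of -0.56 at Nes (17 steps), -0.50 at Sox9 (20 steps) and -0.34 at Sox4 (14 steps), a description only, since steps share arrays and adjoin each other. For the NPC minus ESC difference it was 0.55, 0.15 and 0.57. With the trend of the difference with GC content over all probes removed, the promoter differences were -0.93 at Nes, -0.58 at Sox9 and -0.65 at Sox4. Before, they were -0.85, -0.50 and -0.55, and the part of GC content in them was not tested. NPC ratios also spread more widely over the array, with a slope of 1.22 against the mean of ESCs over tiles. Against the other ESC populations, tSBE(6+2)-Vp64 on the same slide had 1.19, and the populations on the other slide had 0.86 to 1.04. The part of the slide in this was not tested. With NPC values divided by their slope of 1.22 the promoter differences were -0.84, -0.63 and -0.52. Ratios at different positions come from different probes, and whether they differ between positions was not tested.

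Tiles of 2 kb with at least 3 probes on every array set these loci beside the rest of the array. Of 2289 such tiles, 155 had a lower ratio in NPCs than in the 5 ESC populations at an adjusted p of 0.05 (6.77%) and 517 a higher one (22.6%), by limma with Benjamini-Hochberg adjustment over all tiles. Of 29 tiles in the 3 loci, 28 passed the filter on probes. Because the genes were chosen on this contrast, their tiles are given by value and without calls. The 10 tiles of Nes differed by -1.96 to -0.55 with a median of -0.79, the lowest being the tile in exon 4, which had the lowest difference of all 2289. The 10 tiles of Sox9 differed by -1.27 to -0.19 with a median of -0.47, of which the 5 farthest upstream had -0.44 to -0.19. The 8 tiles of Sox4 differed by -0.88 to 0.05 with a median of -0.51. The median over all tiles was 0.04.

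**Figure D3:**
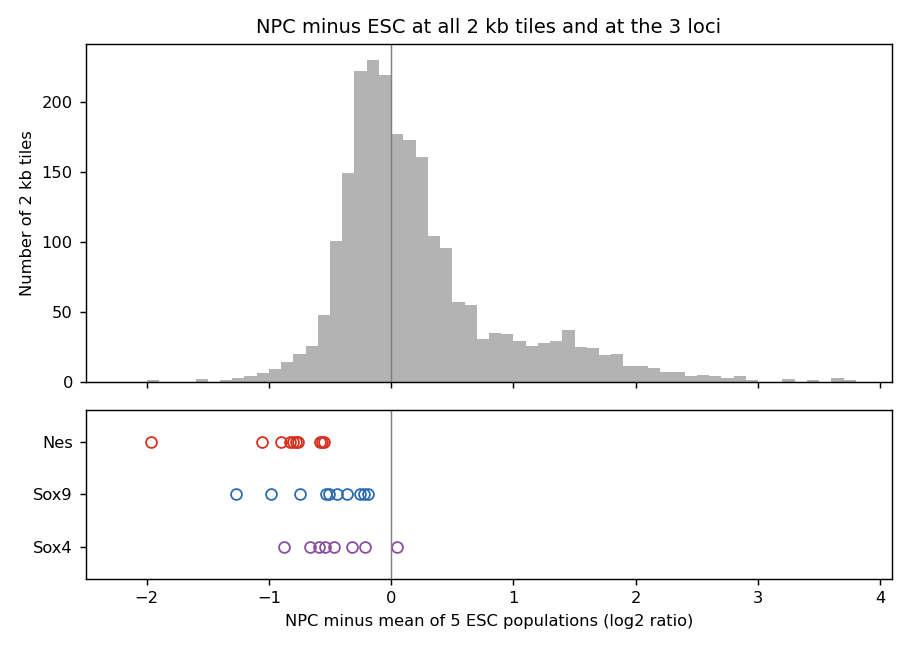
Distribution of NPC minus ESC differences in log2 ratio (x axis) over all 2289 tiles of 2 kb (upper panel, y axis: number of tiles) and the tiles of Nes, Sox9 and Sox4 (lower panel, 1 point per tile). The 28 tiles of the 3 loci lie between -1.96 and 0.05, while the tail of the array as a whole runs to higher values.

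Averaged over whole tiled regions, Nes, Sox9 and Sox4 had the 3 lowest NPC minus ESC differences of the 39 regions, at -0.93, -0.53 and -0.42. Because the genes were chosen on this contrast, this order describes the choice and is not a result of its own. Over the ESC populations the Nes region ranked 9th, Sox9 4th and Sox4 17th in ratio, and in NPCs they ranked 30th, 17th and 28th. The median difference over regions was 0.29, and 11 of the 39 regions were lower in NPCs. Next after Sox4 came the region of Igf2, an imprinted gene for a fetal growth factor, also at -0.42. Igf2 was also the region that followed them most closely over the 12 arrays besides each other, with a Pearson correlation of region means of 0.972 with Nes, 0.968 with Sox9 and 0.819 with Sox4. Nes and Sox9 correlated at 0.975 over the 12 arrays and at 0.946 over the 10 ESC arrays, whereas Sox4 and Nes had 0.795 over 12 arrays but 0.15 over the ESC arrays. These correlations share arrays, their centring and the NPC step, and are given without a test.

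**Figure D4:**
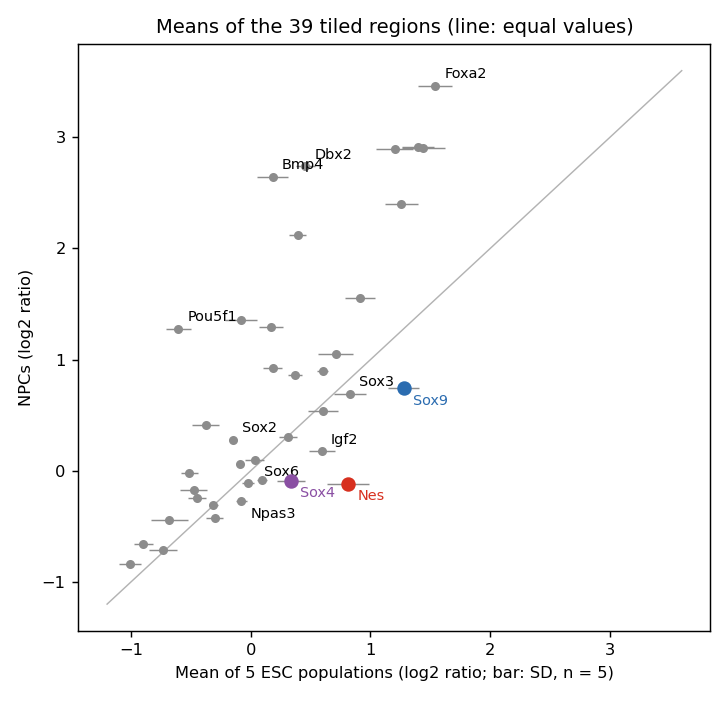
Mean log2 ratio of each of the 39 tiled regions in NPCs (y axis) against the mean of the 5 ESC populations (x axis, bar: SD, n = 5), with a line of equal values. Nes, Sox9 and Sox4 lie below the line with differences of -0.93, -0.53 and -0.42, while Bmp4 and Dbx2 lie above it with 2.47 and 2.29.

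Of 36 neural development genes, 16 were on the array, in 15 regions with 1549 tiles. The median NPC minus ESC difference over these tiles was 0.002, beside 0.04 over all 2289 tiles. The list makes up most of the 2289 tiles, so both medians rest largely on the same tiles. The regions differed: the median over the tiles of a region was above 0 in 10 of the 15. It ran from -0.26 at Sox3 to 2.55 at Bmp4. The region of Bmp4, which encodes a signal that opposes neural fate, had the highest mean difference of the list (2.47), followed by Dbx2, a homeobox gene of the ventral spinal cord, at 2.29. The lowest were Npas3, a transcription factor of the brain, at -0.20, and Sox3, a SOX factor of early neural progenitors, at -0.13. In whole-region means Nes, Sox9 and Sox4 were all below these. At the promoter window, however, Npas3 had 1.91 in ESCs and 0.99 in NPCs, a difference of -0.92 that is lower than that of Nes. The 420 tiles of the Npas3 region differed by -1.55 to 1.15. Among other SOX genes on the array, named after their values were seen, the promoter difference was 0.81 at Sox2, 0.73 at Sox6 and -0.11 at Sox3, so the SOX genes did not share a direction.

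The TALE-Vp64 populations against eGFP ESCs were the comparison that played no part in choosing the genes. It asks whether targeting Vp64 to Shh or its enhancers in ESCs came with a change of H3K27me3 at these 3 loci. At an adjusted p of 0.05, limma called 0 of 2289 tiles (0.0%) and none of the 28 tiles of the 3 loci, and at an unadjusted p under 0.05 it called 38 of all tiles (1.66%) and 1 of the 28. The 15 other settings run also called 0 tiles. The 28 differences ranged from -0.56 to 0.41, and 19 of them were below 0, against 58.8% of all tiles. Their median was -0.15, beside -0.03 over all tiles. Without tSBE(6+2)-Vp64 ESCs the number of all tiles at an unadjusted p under 0.05 was 163, of which 1 was in the 3 loci, again at Nes.

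The tile with the unadjusted p under 0.05 was the one over exon 4 of Nes, 5 to 7 kb from the TSS. The mean of the 4 TALE-Vp64 populations was lower than eGFP by a difference of -0.56 (95% interval -1.02 to -0.10, unadjusted p = 0.0208 and adjusted p = 0.998 in limma). Without the R1 arrays no Nes tile had an unadjusted p under 0.05. All other intervals at Nes and all intervals at Sox9 and Sox4 included 0, and the median half-width was 0.41, so a difference below that size could not be told from 0. With eGFP as a single sample, assumed to vary like the others, this does not show that the populations were alike.

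The 4 constructs had values on either side of eGFP. At the Nes promoter the difference from eGFP was -0.24 with tShh-Vp64, -0.21 with tSBE6-Vp64, -0.18 with tSBE2-Vp64 and 0.04 with tSBE(6+2)-Vp64. At Sox9 it was -0.31, -0.31, -0.13 and 0.07 in the same order, and at Sox4 -0.21, -0.04, -0.10 and 0.25. The mean over the 4 constructs was -0.15, -0.17 and -0.03. For a single construct there is 1 sample and no test, and the 2 eGFP arrays themselves were 0.17 apart at Nes, 0.23 at Sox9 and 0.22 at Sox4. The population with the highest promoter value at all 3 genes, tSBE(6+2)-Vp64, was also the only ESC population on slide 2, and the part of the slide in this was not tested. With loess normalization its difference from eGFP turned to -0.15 at Nes and -0.20 at Sox9. All of these differences were smaller than the distance from eGFP ESCs to NPCs, -0.97 at Nes, -0.63 at Sox9 and -0.57 at Sox4. That distance is part of the contrast that chose the genes and crosses the slides, so it sets no scale for the TALE-Vp64 differences.

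**Figure D5:**
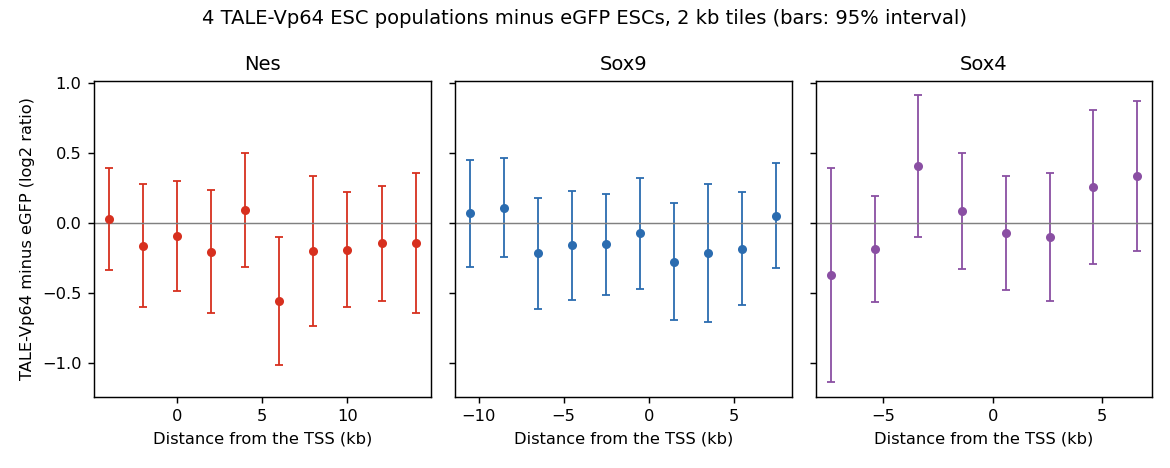
Mean of the 4 TALE-Vp64 ESC populations minus eGFP ESCs in log2 ratio (y axis) at the 2 kb tiles of Nes, Sox9 and Sox4, against the distance of the tile's centre from the TSS in kb (x axis), with bars for the 95% interval from limma. All intervals cover 0 except that of the Nes tile 5 to 7 kb downstream of the TSS, which runs from -1.02 to -0.10.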

How the data were processed

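H3K27me3 was measured by native ChIP after MNase digestion, with ChIP and input DNA hybridised to 2-colour custom Agilent arrays, 2 for each of 6 conditions. Per the file headers the authors extracted the scanner intensity values with Feature Extraction 11.5.1.1. The authors also deposited combined log2 ratios of R1 and R2, which served as an alternative. The submitters' processing notes name limma, and how the ratios were normalized is not given in the sources used here. The study's methods describe other arrays, so its steps were taken only as an alternative.

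From the processed intensity of each scan, background-subtracted and further adjusted in single-colour mode without dye normalization, log2 Cy5 minus log2 Cy3 was computed, probes the scanner software marked as outliers were left out, and each array was centred on its median. Probes were averaged within 2 kb of the TSS, in steps of 1 kb with at least 5 probes and in tiles of 2 kb with at least 3, and the 2 arrays of a condition were averaged. Tiles were tested with limma 3.58.1 (R 4.3.3; lmFit and eBayes on all 6 samples, with Benjamini-Hochberg adjustment over all tiles, threshold 0.05), which assumes that the lone NPC or eGFP sample varies like the ESC populations. Other steps ran in Python 3.11.15 with pandas 2.3.3. The fit was also run on simulated data in which all samples varied like the ESC populations, so that assumption was not tested. Gene positions came from the mm9 annotation GENCODE vM1.

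Groups came from the labels. The members and gene lists were chosen with earlier results of these data known. Genes named besides the 3 were the regions most alike over arrays, the highest and lowest of the neural development list, Gapdh, Actb, Six3 and Hoxd10 for scale, and markers of the cell types. Nothing states that the ESC populations came from separate cultures repeated over time, so p-values measure the spread between these samples. Arrays give no counts, and their number limits the precision. The array numbers R1 and R2 did not pair the samples, as deviations of R1 correlated at -0.06 to 0.12 between conditions. Alternatives were other normalizations, background correction, filters, windows, tile sizes, the slide, the range of the NPC ratios, GC content, and leaving out arrays or populations.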

Additional observations from a re-analysis of the deposited data

Results flagged for a closer look

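At Nes intron 2, 1 ESC population stood apart. tSBE(6+2)-Vp64 ESCs had a mean log2 ratio of 0.85 over its 23 probes, the same on R1 and R2, whereas the other 4 ESC populations had 0.43 to 0.50. The gap was 0.82 of the range over the 5 populations. Of 26 such groups of 5 populations this was the 1 beyond Dixon's critical value, and chance alone gives about 1 in 20. The tSBE(6+2)-Vp64 arrays were on slide 2 with those of NPCs, which had -0.33, and the part of the slide was not tested.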

How the results depend on the processing

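As the genes were chosen on the NPC minus ESC difference, its sign under other settings is a description and no test. The difference kept its sign at all 3 promoters under 17 alternatives each. With slide in the fit it was -1.0 at Nes, -0.70 at Sox9 and -0.82 at Sox4. This repeats the difference from tSBE(6+2)-Vp64, the only ESC population on the slide of the NPCs, and adds no separate check. With a window of 1 kb it was -0.29 at Sox9 and -0.75 at Sox4, and with the median over probes -0.34 at Sox4. Leaving out arrays or populations gave -0.88 to -0.81 at Nes, -0.56 to -0.44 at Sox9 and -0.64 to -0.46 at Sox4. The number of tiles differing between NPCs and ESCs, 672 in all, was 1158 with 1 kb tiles and 372 with 5 kb tiles, where the number of tiles tested changed too, and 592 to 707 when arrays or populations were left out. Arrays as separate samples gave 1102 tiles (408 lower, 694 higher) without and 1057 (388 lower, 669 higher) with the array number as a replicate block, a setting that counts the 2 arrays of 1 sample as 2. Between TALE-Vp64 and eGFP ESCs 0 tiles were called under all alternatives, the replicate block included, with 12 to 188 at an unadjusted p under 0.05. The mean TALE-Vp64 minus eGFP difference ranged over left-out arrays or populations from -0.23 to -0.06 at Nes, -0.27 to -0.07 at Sox9 and -0.16 to 0.11 at Sox4, where it kept its sign under 9 of 13 alternatives. At Sox4 the tShh-Vp64 minus eGFP difference of -0.21 turned to 0.055 with a window of 5 kb, and the cause was not tested. Dim probes limit the ratios: 424 of the 611 probes (69.4%) were well above background on all scans, against 26517 of 48316 (54.9%) over the array.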
